A study of Mus musculus with 6 samples.

Results

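The genes described here form the T cell receptor complex and the first steps of its signalling: Cd3d, Cd3e, Cd3g, Cd247, Cd4, Cd5, Cd6, Cd28, Lck and Zap70. They were chosen by symbol, and all 10 stood among the 770 genes of the authors' table. The table came from oral squamous cell carcinoma of mice in which the tumours were induced with 4NQO, a chemical carcinogen, in both groups. One group had received an agonistic antibody to CD40, a receptor on antigen-presenting cells, and the other had received vehicle, with 3 samples in each. RNA came from formalin-fixed, paraffin-embedded primary tumours. The labels give no mouse strain background, age, sex, dose or schedule, nor whether each sample was a different animal. P-values therefore set the difference of group means only against the spread of these samples within groups, part of which may be technical.

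The T cell receptor itself has no enzyme activity. Its antigen-binding chains are held by the CD3 chains and by the zeta chain, whose tyrosine motifs are phosphorylated by the kinase LCK when the receptor meets a peptide on an MHC molecule. ZAP-70 docks on the phosphorylated motifs and passes the signal on, while CD4 brings LCK to receptors that see MHC class II, CD28 adds a costimulatory signal, and CD5 and CD6 are surface proteins that tune the response. In tumours these transcripts are used as a measure of T cell infiltration.

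Values are log2 normalized counts as deposited, and differences are anti-CD40 minus vehicle on that scale, with mean ± SD over n = 3 per group. Whole counts could be recovered from the values and summed to between 333400 and 578598 per library over all genes. A gene was taken as above background where its count lay more than 2 SD over the mean of the 8 negative controls, a limit of 24.7 to 26.6 counts or 5.57 to 6.52 log2. By this measure 523 of 770 genes were above background in all 6 libraries and 82 in none. Of the T cell receptor genes, Cd3d, Cd3e, Cd3g, Cd247 and Cd5 were above it in all 6 libraries, Cd4 and Lck in 5, and Cd6, Cd28 and Zap70 in 3. Because each gene was read with its own probe, levels of different genes are not compared. In whole tumours, fewer T cells and less RNA per T cell cannot be told apart.

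The CD3 genes lie side by side in the mouse genome, with Cd3g and Cd3d facing away from each other and their RefSeq start sites 1355 bases apart, and Cd3e the next protein-coding gene. RefSeq promoter windows (GRCm38.p6, 250 bases before to 50 after the start site) were matched for 7 of the 10 genes and not for Cd4, Cd6 or Cd28. The windows of the CD3 cluster are shown because these genes had positive correlations over the libraries, and that of Cd5 because its groups did not overlap. They are at chr9:44980382-44980681 (minus strand) for Cd3g, chr9:44981536-44981835 (plus strand) for Cd3d, chr9:45009562-45009861 (minus strand) for Cd3e and chr19:10738925-10739224 (minus strand) for Cd5. Each is printed 5′ to 3′ on the gene's strand. Capitals mark matches on either strand to AGGAAG, a core of ETS factor sites, and CAGGTG, an E-box.
Cd3g: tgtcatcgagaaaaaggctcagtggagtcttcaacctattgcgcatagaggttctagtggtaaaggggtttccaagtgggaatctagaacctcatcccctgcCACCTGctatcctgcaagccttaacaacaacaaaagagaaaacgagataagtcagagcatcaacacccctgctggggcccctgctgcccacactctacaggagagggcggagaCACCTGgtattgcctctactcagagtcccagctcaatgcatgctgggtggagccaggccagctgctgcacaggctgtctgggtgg
Cd3d: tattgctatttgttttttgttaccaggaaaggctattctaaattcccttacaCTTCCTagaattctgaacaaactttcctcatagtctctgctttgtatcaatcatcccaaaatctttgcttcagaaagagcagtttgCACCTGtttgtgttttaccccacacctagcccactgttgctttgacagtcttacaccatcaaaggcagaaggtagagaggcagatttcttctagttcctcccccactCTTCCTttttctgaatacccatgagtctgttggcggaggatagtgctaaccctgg
Cd3e: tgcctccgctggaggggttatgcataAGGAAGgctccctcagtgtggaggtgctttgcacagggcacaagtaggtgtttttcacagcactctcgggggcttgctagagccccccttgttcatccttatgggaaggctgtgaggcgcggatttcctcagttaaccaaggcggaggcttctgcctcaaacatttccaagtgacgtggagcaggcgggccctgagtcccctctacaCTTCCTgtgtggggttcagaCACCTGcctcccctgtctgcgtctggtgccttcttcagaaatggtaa
Cd5: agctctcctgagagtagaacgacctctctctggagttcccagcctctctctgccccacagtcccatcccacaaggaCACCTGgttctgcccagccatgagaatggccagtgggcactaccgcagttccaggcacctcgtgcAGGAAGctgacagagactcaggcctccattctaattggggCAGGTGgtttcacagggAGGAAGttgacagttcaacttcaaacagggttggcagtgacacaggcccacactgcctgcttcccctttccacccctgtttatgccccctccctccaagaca
AGGAAG was found in 8 of the 10 windows of the 7 genes and in 35.4% of all 32851 windows of the table, and CAGGTG in 9 of 10 and in 20.2%. The RUNX core TGTGGT was found in 2 of the 10 windows and in 16.8% of all, and TATAAA in 0 of the 10 and in 13.6% of all. Both strands were searched, and no matches overlapped in these 10 windows. A match is a stretch of letters and not a shown binding site.

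The comparison asks how expression in these tumours differed after the CD40 agonist. None of the 10 genes passed the test, and 9 of them had the lower mean in anti-CD40 tumours. On the deposited scale Cd5 stood furthest apart, 0.83 lower in anti-CD40 tumours with no overlap between the groups. Cd28 was the one gene with the higher mean, by 0.48, also without overlap but close to background. The CD3 chains, Cd247, Cd4, Cd6, Lck and Zap70 lay between 0.08 and 0.33 lower in the mean, with groups that overlapped. Limma with Benjamini-Hochberg adjustment over all 770 genes called 0 of the 10 and 0% of the table (adjusted p = 0.974 for each of the 10). At an unadjusted p under 0.05, 1 of the 10, Cd5, stood out beside 3.25% of the table. Voom on the recovered counts called 0 and gave 1 of the 10, again Cd5, an unadjusted p under 0.05, beside 4.68% of the table. Groups did not overlap for 2 of the 10, beside 10.3% of the table, with 1 of them lower in anti-CD40 tumours, beside 3.51%, and 1 higher, beside 6.75%. The mean was lower in anti-CD40 tumours for 9 of 10, beside 45.5% of the table, and the median difference was −0.22, beside 0.04 over all genes. This median was −0.42 without anti-CD40 2 and −0.10 without anti-CD40 1, and −0.62 once background was subtracted. With that subtraction the order changed, to −1.07 for Cd6, 1.05 for Cd28, −0.98 for Cd5 and −0.96 for Zap70, with 0 called. Remainders under 1 count were set to 1 count before the log. Cd6 in anti-CD40 1 was so set, with 12 counts against a mean negative control of 15.9, so its −1.07 depends on this floor. Zap70 had 19 counts in the same library. After subtraction the differences were −0.58 for Cd3d, −0.67 for Cd3e, −0.22 for Cd3g, −0.37 for Cd247 and −0.62 for both Cd4 and Lck.

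**Figure D1:**
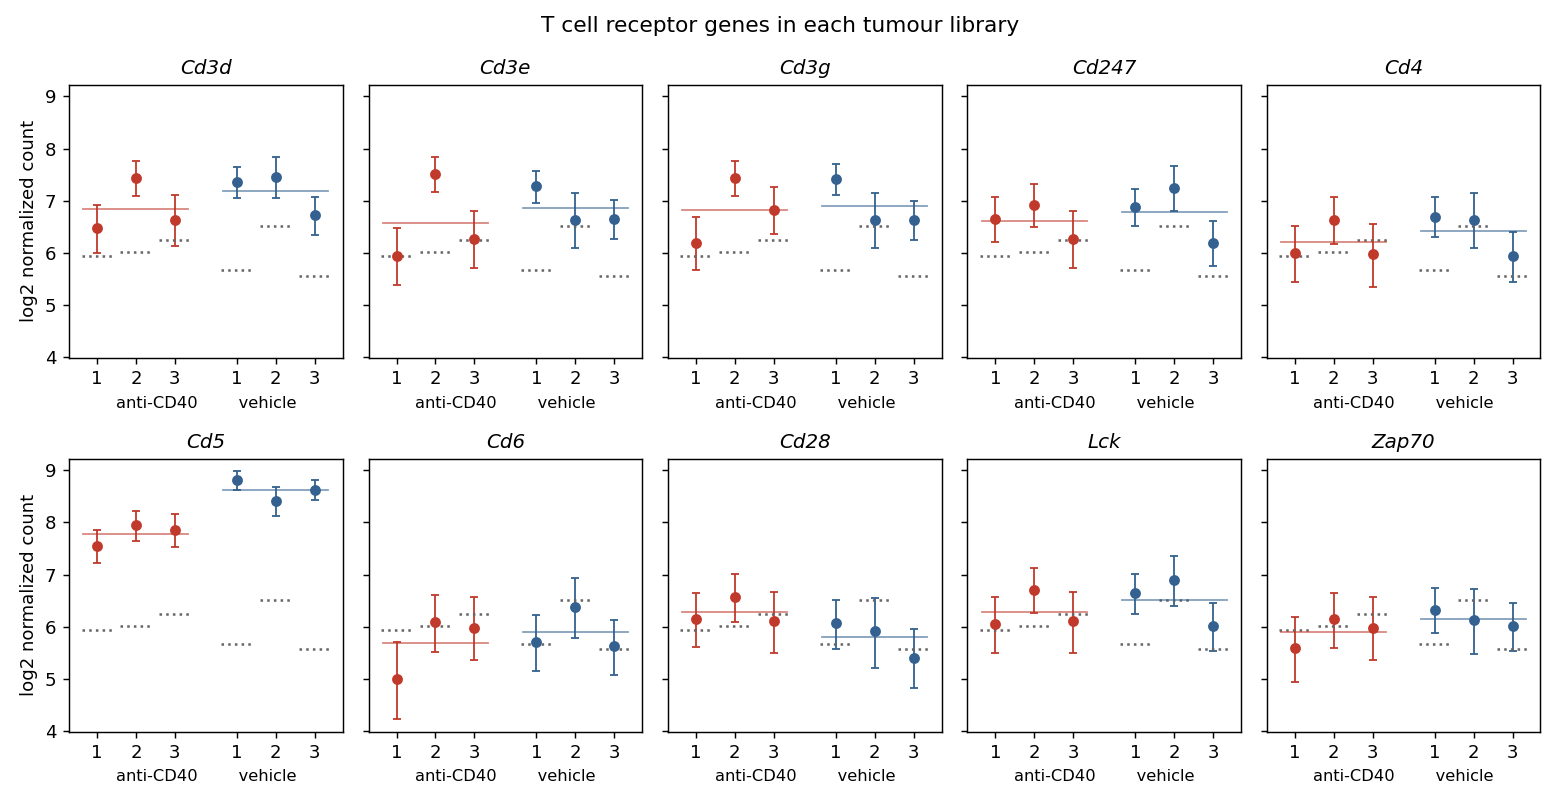
Level of each gene in each library, as log2 normalized count; points are libraries, vertical bars exact 95% Poisson intervals of the recovered count, horizontal lines group means and dotted lines the background limit of each library. Only the Cd5 and Cd28 panels show groups without overlap, and Cd5 alone lies far above the limits in every library.

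Cd3d, Cd3e and Cd3g encode the delta, epsilon and gamma chains of CD3, which pair as epsilon-delta and epsilon-gamma in the receptor. Cd3d was 6.48, 7.43 and 6.64 in anti-CD40 tumours 1, 2 and 3, against 7.36, 7.45 and 6.73 in vehicle tumours 1, 2 and 3. Cd3e was 5.95, 7.51 and 6.27 in anti-CD40 tumours, against 7.28, 6.64 and 6.65 in vehicle tumours. Cd3g was 6.19, 7.43 and 6.83 in anti-CD40 tumours, against 7.42, 6.64 and 6.63 in vehicle tumours. In all of these genes anti-CD40 2 and vehicle 1 were high and anti-CD40 1 was the lowest library, so the highest anti-CD40 tumour reached the level of the highest vehicle tumour. The group means were 6.85 ± 0.51 in anti-CD40 and 7.18 ± 0.40 in vehicle tumours for Cd3d, a difference of −0.33 (95% interval −1.12 to 0.46). For Cd3e they were 6.58 ± 0.83 in anti-CD40 and 6.86 ± 0.36 in vehicle tumours, a difference of −0.28 (−1.29 to 0.73). For Cd3g they were 6.82 ± 0.62 in anti-CD40 and 6.90 ± 0.45 in vehicle tumours, a difference of −0.08 (−0.97 to 0.81). All of these intervals include 0 and reach close to or past 1 log2 on the lower side. The Cd3d difference was −0.62 without anti-CD40 2 and −0.14 without anti-CD40 1. That of Cd3e was −0.75 without anti-CD40 2 and 0.04 without anti-CD40 1, and that of Cd3g was −0.39 and 0.23 without the same libraries.

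The spread of the CD3 chains between tumours of a group was set beside that of counting. Recovered counts of Cd3e were 25, 73 and 26 in anti-CD40 tumours and 82, 29 and 56 in vehicle tumours. The replicate SD of Cd3e was 0.64 log2, beside an SD of 0.22 from counting alone, a ratio of 2.89. The same ratio was 2.35 for Cd3d and 2.61 for Cd3g. Cd3e lay only 0.01 and 0.03 log2 over the limit in anti-CD40 1 and 3. In vehicle 2, both Cd3e and Cd3g lay 0.12 log2 over it.

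Cd247 encodes the zeta chain, the receptor subunit with the most tyrosine motifs, which natural killer cells also use. It was 6.65, 6.93 and 6.27 in anti-CD40 tumours, against 6.89, 7.25 and 6.19 in vehicle tumours. Vehicle 2 was the highest library and vehicle 3 the lowest, so the vehicle group spanned the anti-CD40 group. In anti-CD40 3 Cd247 lay 0.03 log2 over the background limit. The means were 6.62 ± 0.33 in anti-CD40 and 6.78 ± 0.54 in vehicle tumours, a difference of −0.16 (−0.94 to 0.62) that was 0.08 without vehicle 2 and −0.45 without vehicle 3.

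Cd4 encodes the coreceptor of helper and regulatory T cells. It was 6.001, 6.64 and 5.98 in anti-CD40 tumours, against 6.70, 6.64 and 5.94 in vehicle tumours. The difference of −0.22 (−0.94 to 0.51) was −0.08 without vehicle 1 and −0.46 without vehicle 3. Lck, which encodes the kinase carried by CD4 and CD8, was 6.05, 6.71 and 6.11 in anti-CD40 tumours, against 6.64, 6.90 and 6.02 in vehicle tumours. Its difference of −0.23 (−0.97 to 0.51) was −0.04 without vehicle 2 and −0.48 without vehicle 3. Both genes were high in anti-CD40 2, vehicle 1 and vehicle 2 and low in the other tumours, and their Pearson r over the 6 libraries was 0.97. Zap70 was 5.59, 6.14 and 5.98 in anti-CD40 tumours, against 6.32, 6.13 and 6.02 in vehicle tumours, a difference of −0.25 (−0.81 to 0.31). Its counts were 19 to 41, and its replicate SD was 0.23, beside 0.27 from counting. The difference was −0.09 without anti-CD40 1 and −0.96 with background subtracted.

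**Figure D2:**
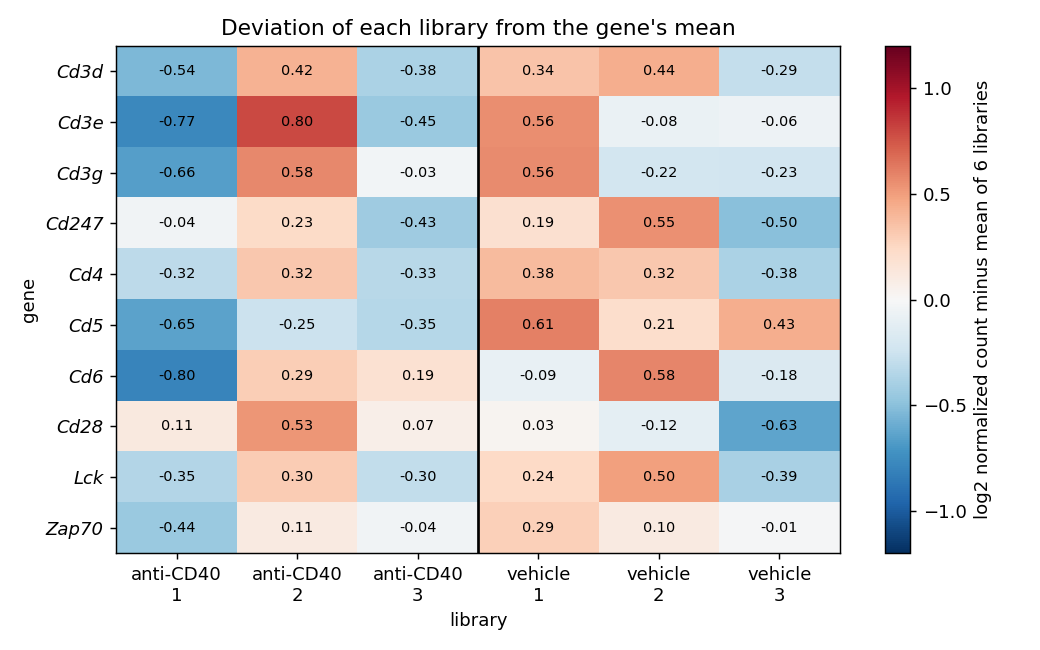
Deviation of each library from the gene's mean over the 6 libraries, in log2 normalized count; columns are libraries, anti-CD40 to the left of the line and vehicle to the right. Anti-CD40 2 and vehicle 1 are above the mean in most rows and anti-CD40 1 is below it in all rows but Cd28, while Cd5 alone splits by group with the lower values in anti-CD40.

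Cd5 encodes a scavenger receptor cysteine-rich protein that dampens T cell receptor signalling and whose surface level is known to follow the strength of that signal. It is also carried by B-1a cells. Cd5 was 7.55, 7.94 and 7.85 in anti-CD40 tumours, against 8.80, 8.41 and 8.63 in vehicle tumours. Every anti-CD40 tumour lay below every vehicle tumour, and the closest pair, anti-CD40 2 and vehicle 2, were 7.94 and 8.41. Recovered counts were 80, 99 and 81 in anti-CD40 tumours and 241, 102 and 228 in vehicle tumours. The exact 95% Poisson interval of the count was 80.5 to 121 in anti-CD40 2, which covers counting error only, and 83.2 to 124 in vehicle 2. The counts of this pair overlapped, and their log2 gap came with scaling factors of 2.44 in anti-CD40 2 and 3.28 in vehicle 2. After subtraction of the mean negative control, the scaled counts were 147, 204 and 192 in anti-CD40 tumours, against 413, 291 and 368 in vehicle tumours, still without overlap.

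The means of Cd5 were 7.78 ± 0.21 in anti-CD40 and 8.61 ± 0.20 in vehicle tumours. The difference of −0.83 (SE 0.23, 95% interval −1.37 to −0.29) is a ratio of 0.562 on the linear scale. Cd5 ranked 3 of 770 by p in limma, with an adjusted p of 0.974. An exact two-sided permutation test gave p = 0.1, the smallest that 3 against 3 allows. Leaving out each library in turn gave between −0.93 and −0.72, and limma-voom on the recovered counts gave −0.90 with an adjusted p of 0.833. Cd5 was lower in anti-CD40 tumours in all 16 alternatives run and passed the adjusted threshold in none of them (limma adjusted p between 0.599 and 0.997). Its sign could not change with the trended variance, the background filter or the replicate block, which leave the difference as it was. Nor could it with 1 library left out, since the groups did not overlap.

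Cd5 was also set against the CD3 chains of the same tumours. This was chosen after its groups were seen to differ, and so in part restates that difference. Cd5 minus the mean of Cd3d, Cd3e and Cd3g was 1.34, 0.48 and 1.27 in anti-CD40 tumours, against 1.45, 1.496 and 1.96 in vehicle tumours. The groups did not overlap, and the means were 1.03 ± 0.48 in anti-CD40 and 1.64 ± 0.28 in vehicle tumours, a difference of −0.60. Cd28, close to background and likewise chosen after values were seen, also did not overlap by this measure. It was −0.06, −0.89 and −0.47 in anti-CD40 tumours, against −1.29, −0.996 and −1.27 in vehicle tumours, a difference of 0.71. Cd3e was near its background limit in anti-CD40 1 and 3, and both Cd3e and Cd3g were near it in vehicle 2. These values compare changes and not the levels of different probes.

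Cd6 encodes the close relative of CD5 that binds ALCAM, and lies beside Cd5 in the genome with a long noncoding gene between them. It was 5.001, 6.09 and 5.98 in anti-CD40 tumours, against 5.71, 6.38 and 5.62 in vehicle tumours. The counts were 12, 26 and 21 in anti-CD40 tumours and 26, 24 and 26 in vehicle tumours. They lay near the background limit except in anti-CD40 1, which was 0.94 log2 under it and below the mean negative control of 15.9 counts. The difference of −0.21 (−1.07 to 0.65) was 0.13 without anti-CD40 1 and −0.41 without anti-CD40 2. With background subtracted it was −1.07, with anti-CD40 1 set to the floor of 1 count.

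Cd28 encodes the costimulatory receptor for CD80 and CD86 on antigen-presenting cells. It was 6.15, 6.57 and 6.11 in anti-CD40 tumours, against 6.06, 5.92 and 5.40 in vehicle tumours. The lowest anti-CD40 tumour lay 6.11 against 6.06 for the highest vehicle tumour, and the values furthest apart were those of anti-CD40 2 and vehicle 3. The means were 6.27 ± 0.26 in anti-CD40 and 5.79 ± 0.35 in vehicle tumours, a difference of 0.48 (SE 0.27, −0.15 to 1.11, adjusted p = 0.974 with limma) that was 0.28 without vehicle 3. Counts were 29, 37 and 23 in anti-CD40 tumours and 34, 17 and 22 in vehicle tumours. With the mean negative control subtracted, the scaled counts were 30.0, 52.2 and 29.7 in anti-CD40 tumours, against 32.8, 11.5 and 14.0 in vehicle tumours, and the groups overlapped. The 8 negative controls themselves differed on the deposited scale by −0.40 to 0.56 between the groups, a range that contains the Cd28 difference and those of all the other genes but Cd5. Among the 82 genes above background in no library, 9 differed by as much as Cd28 or more. Of the 31 genes above background in exactly 3 libraries, 9 did so, with Cd28 itself counted in both numbers.

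**Figure D3:**
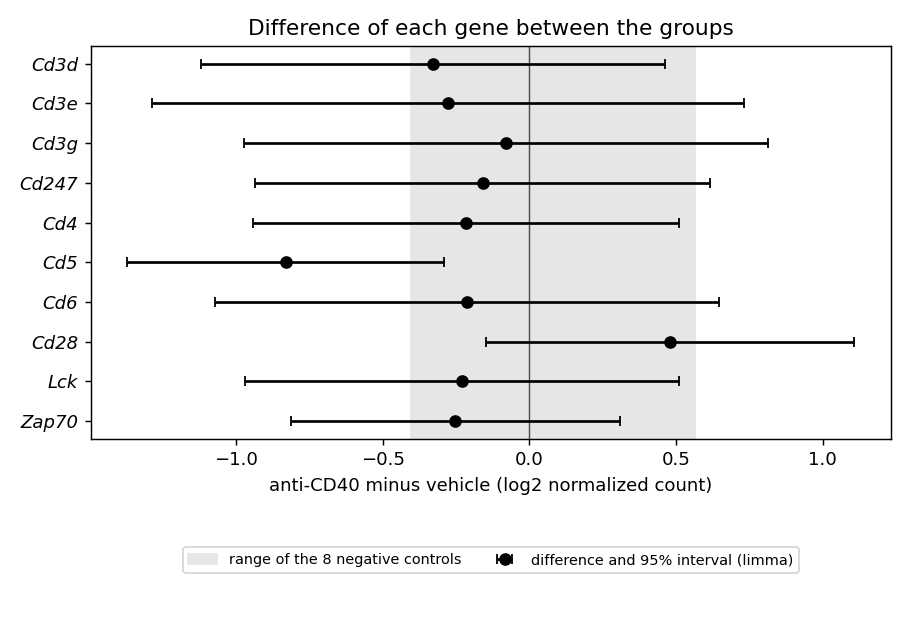
Difference of each gene, anti-CD40 minus vehicle in log2 normalized count, with its 95% interval from limma; the grey band is the range of the 8 negative controls, −0.40 to 0.56. Cd5 at −0.83 is the only gene whose estimate lies outside the band and whose interval does not include 0.

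The genes were also compared with each other from tumour to tumour. Over the 6 libraries, 44 of their 45 pairs had a positive Pearson r, with a median of 0.56, beside 182841 of all 296065 gene pairs of the table, with a median of 0.16. Without Cd5 and Cd28, which were left out after the values were seen, all 28 pairs were positive, with a median of 0.71. With group means left in, the highest r were Cd3d with Cd4 (0.97), Cd4 with Lck (0.97) and Cd3d with Lck (0.96). On the same values Cd3e with Cd3g reached 0.92, whereas Cd3g with Cd247 was 0.28. Once group means were removed, the r of Cd28 was 0.99 with Cd4 and 0.92 with both Cd3d and Lck. These points share the scaling of a library and, for low genes, its background, so the r values are descriptions over 6 points. Mean level over the 8 genes was 5.99, 6.86 and 6.26 in anti-CD40 tumours, against 6.79, 6.75 and 6.22 in vehicle tumours. Anti-CD40 2 and vehicle 1 and 2 were the high tumours, and the groups overlapped.

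Genes with the most similar pattern were looked for among the 518 other genes above background in all libraries. For the mean of the 5 T cell receptor genes above background throughout, the closest included Cx3cr1 (r = 0.98), Cxcl16 (0.97), Il1b (0.97) and Ccr2 (0.97), and 20 of the 518 exceeded 0.9. Cx3cr1, a chemokine receptor gene of monocytes and some lymphocytes, was 7.64, 8.58 and 7.84 in anti-CD40 tumours, against 8.50, 8.47 and 8.11 in vehicle tumours. For Cd3d alone, the closest was Ptprc (0.98), which encodes the leukocyte phosphatase CD45. Ptprc was 8.49, 9.34 and 8.48 in anti-CD40 tumours, against 9.37, 9.26 and 8.54 in vehicle tumours, high in anti-CD40 2, vehicle 1 and vehicle 2, as Cd3d was. For Cd247 it was Tnfrsf14 (0.99).

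For Cd5 the closest was Cdh1 (0.95), which encodes the epithelial cadherin. Cdh1 was 12.01, 12.13 and 11.94 in anti-CD40 tumours, against 12.51, 12.25 and 12.41 in vehicle tumours, a difference of −0.36 (adjusted p = 0.974 with limma) with no overlap. Because Cdh1 was picked for its r with Cd5 over the same libraries, this split by group in part restates that of Cd5. The NF-κB pathway kinase gene Ikbke (0.93) and the kinase gene Map3k1 (0.91) came next. Of 6 measured squamous epithelial markers, 5 had the lower mean in anti-CD40 tumours, with a median of −0.24, and their summed scaled counts were 11712 to 18029 in anti-CD40 and 15379 to 23829 in vehicle tumours. Their part in the Cd5 difference was not tested.

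Markers of other cells, among them cells that carry some of the T cell receptor genes, were read beside these genes. Of 10 B cell markers, 5 were higher and 5 lower in the mean, and 0 were above background in all libraries. Their summed scaled counts were 347 to 735 in anti-CD40 and 316 to 1290 in vehicle tumours, and the defining gene Ms4a1 was above background in 3 of 6 libraries. Of 12 natural killer markers, 6 were higher and 6 lower, with sums of 929 to 1133 in anti-CD40 and 737 to 1244 in vehicle tumours. Of these 12, 5 were above background in no library, and the sums include Fcgr3, which is not restricted to natural killer cells. Fcgr3 was 8.37, 8.45 and 8.50 in anti-CD40 tumours, against 8.17, 8.60 and 7.49 in vehicle tumours, with overlap. Ncr1, the defining receptor gene, was above background in 0 libraries. Klrk1, which encodes NKG2D on natural killer and cytotoxic T cells, was 6.32, 6.41 and 6.05 in anti-CD40 tumours, against 7.09, 6.78 and 6.60 in vehicle tumours, without overlap (difference −0.56, adjusted p = 0.974 with limma). Of 5 dendritic cell markers all 5 were lower (sums 428 to 547 in anti-CD40 and 436 to 690 in vehicle tumours), and of 9 macrophage markers 8 were higher (3850 to 4374 in anti-CD40 and 2455 to 4162 in vehicle tumours). Of 8 neutrophil and granule markers 7 were higher, with a median of 0.68 and sums of 28726 to 151369 in anti-CD40 and 28809 to 146906 in vehicle tumours. Of 9 endothelial and fibroblast markers 8 were higher, with sums of 28278 to 39951 in anti-CD40 and 19389 to 34222 in vehicle tumours. Among them Col3a1, a fibrillar collagen gene, was 13.88, 14.44 and 14.12 in anti-CD40 tumours, against 13.84, 13.82 and 13.48 in vehicle tumours, without overlap. Thy1 is on this list and also on that of other T cell surface and lineage genes. The macrophage markers Cd163 and Mrc1 were likewise higher without overlap, by 0.67 and 0.38 (adjusted p = 0.974 for each with limma). Of 5 pan-leukocyte genes 3 were higher and 2 lower, with a median of 0.01. What these cells contributed to the differences above was not tested.

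Genes of further steps of T cell receptor signalling lay in both directions. Of 13 measured genes, 9 had the higher and 4 the lower mean in anti-CD40 tumours, and the median difference was 0.08 with 0 called. They included Nfatc4, a calcium-regulated transcription factor gene, at 8.49 ± 0.13 in anti-CD40 and 8.11 ± 0.32 in vehicle tumours. Nfatc1, another of that family, was 8.46 ± 0.49 in anti-CD40 and 8.25 ± 0.19 in vehicle tumours. Ptprc, also on this list, went the other way, at 8.77 ± 0.50 in anti-CD40 and 9.06 ± 0.45 in vehicle tumours. Most genes of this list that were above background in all libraries, such as Nfatc1, are also expressed outside T cells. The difference between this list and the receptor genes was not tested.

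Of 20 other T cell surface and lineage genes, 7 were higher and 13 lower, with a median difference of −0.06, 0 called and 6 above background in all libraries. Gata3, a transcription factor gene of helper cells, was 5.71 ± 0.43 in anti-CD40 and 6.08 ± 0.36 in vehicle tumours. Pdcd1, which encodes PD-1, was 5.19, 7.09 and 6.05 in anti-CD40 tumours, against 6.45, 6.49 and 6.26 in vehicle tumours. Anti-CD40 2 was again the highest library and anti-CD40 1 the lowest, as for Cd3e. Cd8a, the gene of the CD8 coreceptor chain, was above background in 1 library, so the CD8 counterpart of Cd4 could not be followed at this depth.

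Of 8 genes for ligands of these receptors, 2 were higher and 6 lower, with a median of −0.22 and 0 called. Cd80, which encodes a ligand of CD28, was 6.40, 7.93 and 7.12 in anti-CD40 tumours, against 7.56, 7.51 and 7.84 in vehicle tumours. The MHC class II gene H2-Ab1, whose product CD4 binds, was 12.63 ± 0.30 in anti-CD40 and 13.03 ± 0.55 in vehicle tumours. Il16, which encodes a cytokine that binds CD4, was 7.01 ± 0.26 in anti-CD40 and 6.50 ± 0.68 in vehicle tumours. In all of these the groups overlapped. The gene of the antibody's target, Cd40, was 6.73 ± 0.49 in anti-CD40 and 6.98 ± 0.42 in vehicle tumours.

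**Figure D4:**
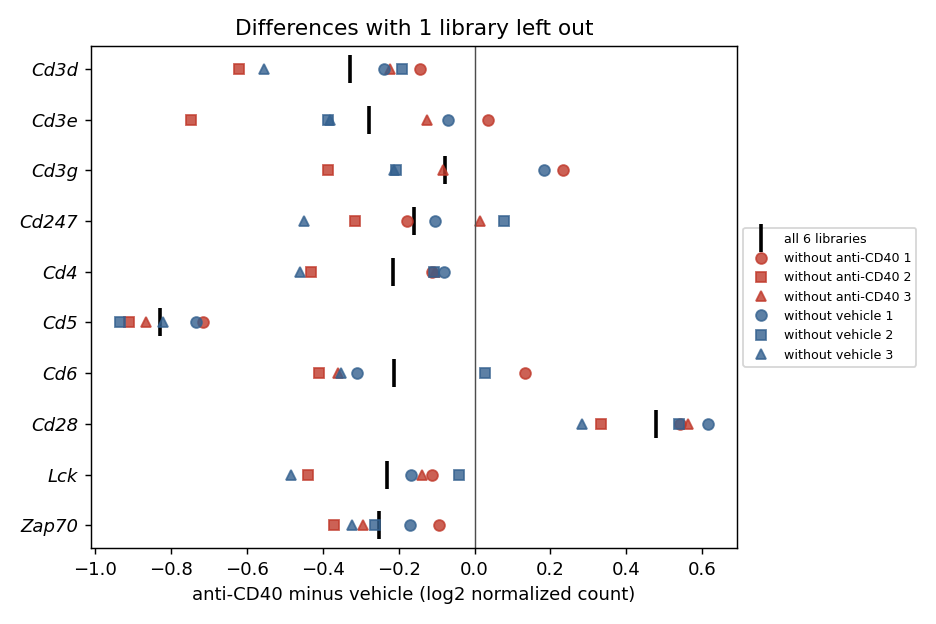
Difference of each gene, anti-CD40 minus vehicle in log2 normalized count, with all 6 libraries (bar) and with each library left out (symbols). Cd5 stays between −0.93 and −0.72 and Cd28 between 0.28 and 0.61, whereas Cd3e, Cd3g, Cd247 and Cd6 change sign. Cd5 and Cd28 could not change sign here, since their groups did not overlap.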

How the data were processed

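The log2 normalized counts deposited by the authors stand in 1 table with 770 genes, 6 positive and 8 negative controls in 6 samples, grouped by their titles. The sources used here name no platform, software, normalization rule or genome build. RNA was extracted with a kit for fixed tissue, per the labels' protocols. The values equal log2 of a library factor (1.72 to 3.28) times a whole count, to which an offset of 4.55 was added. All 4704 deposited values gave a whole count to within 0.05. This offset understates differences of low genes, and background was not subtracted.

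The groups were compared with limma 3.58.1 (R 4.3.3; lmFit and eBayes, two-sided, Benjamini-Hochberg over 770 genes, threshold 0.05, 4 residual degrees of freedom), tested on simulated data. Exact permutation tests and intervals used scipy 1.17.1. Chi-square per degree of freedom was 64.2 to 121 for pairs of one group and 30.5 to 167 across groups. Each library was kept as its own sample, which does not show that the animals were separate.

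All 10 genes were named. From each other list the rule took up to 3 genes of lowest p above background in at least 3 libraries, plus the genes of most similar pattern (3 for each gene, 5 for their mean) and Cd40; further marker genes, such as Cd8a, Ncr1 and Ms4a1, were named for their detection after values were seen. Some genes that the rule takes are not reported here. The genes and lists were chosen with earlier results of these data known. Symbols of all 10 matched RefSeq.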

Additional observations from a re-analysis of the deposited data

How the results depend on the processing

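Limma called 0 genes, over 770 tested or 618 with the background filter, in the main analysis and in each of 16 alternatives: voom with trimmed-mean scaling, a background filter, 3 other normalizations, pseudocounts of 1 and 20, background subtraction, a trended robust variance, the replicate block and 6 omissions of 1 library. Unadjusted p under 0.05 held for 25 genes, and for 13 to 49 with 1 library left out, 52 after quantile normalization, 42 after median centring and 36 with voom. The median difference of the 10 genes, −0.22, ranged from −0.42 to −0.10 with 1 library left out and was −0.62 after background subtraction. Of 160 gene values under alternatives, 153 kept their sign, including those of the background filter, trended variance and replicate block, which leave differences unchanged. These 153 also include the omissions of 1 library for Cd5 and Cd28, which could not reverse because their groups did not overlap. The 7 others came with 1 library left out, where differences ranged from −0.45 to 0.077 for Cd247, from −0.75 to 0.036 for Cd3e, from −0.39 to 0.23 for Cd3g and from −0.41 to 0.13 for Cd6. The remaining reversals were 0.013 for Cd247 without anti-CD40 3, 0.18 for Cd3g without vehicle 1 and 0.027 for Cd6 without vehicle 2.

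With the replicate number as a block, 0 genes were called. Same-numbered samples did not deviate together (r = −0.43, 0.07 and 0.28), so the numbers were not taken as pairs. The lowest counts of the 10 genes, Cd5 aside, were 12 to 34 against limits of 24.7 to 26.6, and with 3 samples a group this bounds what could be detected.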
